A study of Rattus norvegicus with 24 samples.

Results

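Pyruvate enters the mitochondrial oxidation of carbohydrate through the pyruvate dehydrogenase (PDH) complex, and this step was followed here through 10 genes in rat muscle. They are the PDH kinases Pdk1, Pdk2, Pdk3 and Pdk4, the PDH phosphatase Pdp1, the subunits Pdha1 and Pdhb of the E1 enzyme, and Hk2, Slc2a4 and Txnip, which act on the entry of glucose. The genes were taken by their symbols from a table of 10851 genes, and all 10 were present and passed the filter on low counts. RNA was sequenced from the medial gastrocnemius of the left leg of 24 male Wistar rats, each rat giving 1 library. The 6 Sed rats received saline and stayed untrained, the 6 Ex rats received saline and ran on a treadmill, the 6 CC-Sed rats received monocrotaline and stayed untrained, and the 6 CC-Ex rats received monocrotaline and ran. Monocrotaline is a plant alkaloid that damages the lung vessels, so that the model is one of pulmonary hypertension with failure of the right heart and cardiac cachexia (CC), the muscle loss of advanced heart failure. Muscle was collected at rest, some days after the last exercise test.

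The PDH complex turns pyruvate into acetyl-CoA and so commits carbohydrate to oxidation. The PDH kinases phosphorylate its E1α subunit and switch it off, and the PDH phosphatases remove the phosphate and switch it on again. In skeletal muscle, Pdk4 is known as the isoform that rises in fasting, diabetes and lipid-rich states, when fatty acids replace glucose as fuel, and Pdk2 is the widely expressed isoform. Glucose itself enters the fibre through GLUT4, the product of Slc2a4, and is trapped by hexokinase 2, the product of Hk2. Txnip encodes an arrestin-like protein that promotes the removal of glucose transporters from the cell surface and binds thioredoxin.

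Of these genes, Pdk4, Txnip and Pdk2 were higher in the rats given monocrotaline, and the other 7 did not pass the test. Levels are given as counts per 1000000 counts (CPM) after scaling of the libraries by the TMM method, and differences as Log2FC from a quasi-likelihood model in edgeR, with a gene called at a Benjamini-Hochberg adjusted p-value under 0.05 over all genes. In Sed vs. CC-Sed 1 of the 10 genes was called, Txnip, beside 6.22% of all genes, and in Ex vs. CC-Ex edgeR called 0, beside 0.986% of all genes. In the latter comparison 3 of the 10 (Pdk2, Pdk4 and Txnip) had an unadjusted p under 0.05, beside 22.5% of all genes, and DESeq2 called these 3 and limma-voom 1, Pdk2. Averaged over sedentary and exercised rats, the difference by monocrotaline called 3 of the 10 genes, all higher, beside 17.2% of all genes called higher and 27.8% called in either direction. The share called among the 10 genes therefore lay close to that among all genes, and the larger part of this account is about single genes. The median Log2FC of the 10 genes was 0.13 in Sed vs. CC-Sed and -0.0056 in Ex vs. CC-Ex, against 0.021 and 0.013 over all genes.

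**Figure D1:**
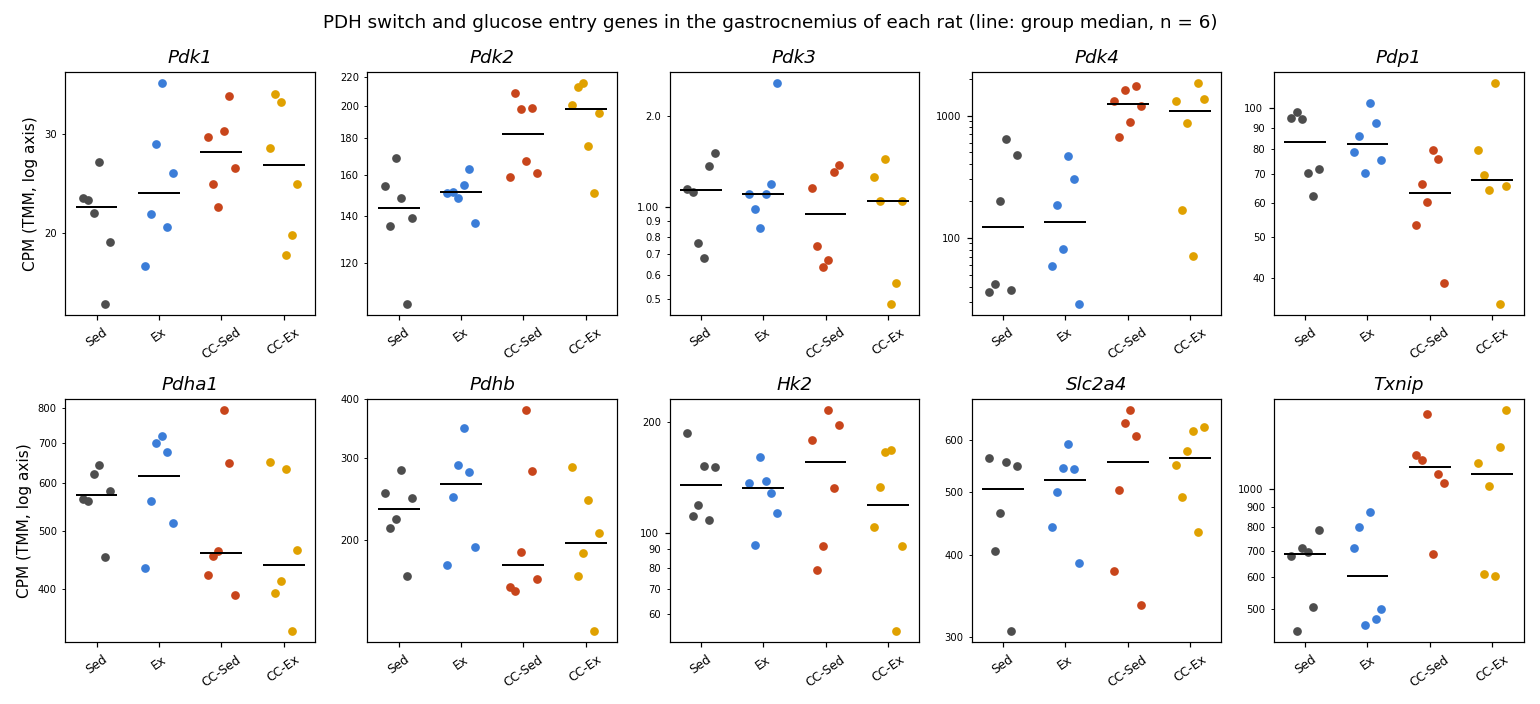
Level of each of the 10 genes in each of the 24 rats, as CPM after TMM scaling on a logarithmic axis that differs between panels. Points are rats, coloured by group, and the black line is the group median (n = 6). Pdk4 stands at 662.9 CPM or more in all CC-Sed rats, while 2 CC-Ex rats lie among the saline rats, and Pdk2 and Txnip are shifted upward in the monocrotaline groups with overlap.

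Pdk4 (ENSRNOG00000009565) showed the largest difference of the 10 genes and also the largest spread. In Sed rats its level ran from 36.11 CPM over a median of 122.0 to 645.1 CPM. In Ex rats the lowest level was 28.81 CPM, the median 133.8 and the highest 467.1 CPM. The saline rats of both groups thus spanned more than an order of magnitude, with 3 of the 6 Sed rats below 50 CPM and 2 above 400 CPM. In CC-Sed rats the lowest level was 662.9 CPM, the median 1248 and the highest 1738 CPM. In CC-Ex rats it ran from 71.38 over a median of 1089 to 1848 CPM. Sed and CC-Sed did not overlap for Pdk4, which held for 3.61% of all genes, although the lowest CC-Sed rat exceeded the highest Sed rat by only a small margin. Ex and CC-Ex, which did not overlap for 1.08% of all genes, overlapped for Pdk4, because CC-Ex replicate 4 (71.38 CPM) and replicate 2 (170.1 CPM) lay within the range of the Ex rats, while the other 4 CC-Ex rats lay above every Ex rat.

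The Log2FC of Pdk4 was 2.36 (SE 0.81, edgeR adjusted p = 0.0728) in Sed vs. CC-Sed and 2.32 (SE 0.81, adjusted p = 0.118) in Ex vs. CC-Ex, so neither comparison alone passed the threshold in edgeR. With DESeq2 both passed, at 2.34 (DESeq2 adjusted p = 0.0132) and 2.33 (adjusted p = 0.0212). With limma-voom the first passed (3.30, limma-voom adjusted p = 0.0360) and the second did not (1.88, adjusted p = 0.190). The study also used DESeq2, but Pdk4 is absent from its top upregulated genes in Ex vs. CC-Ex, where the DESeq2 Log2FC given here would have placed it. The calls therefore differ for Pdk4 in exercised rats. With a Log2FC minimum of 1 added, the DESeq2 fit used here called 214 genes in Ex vs. CC-Ex. The study reports far fewer for that comparison, and the cause of the difference was not tested. Averaged over sedentary and exercised rats, Pdk4 rose by a Log2FC of 2.34 (SE 0.57, interval of 2 SE from 1.20 to 3.49, edgeR adjusted p = 0.00648), which is 5.08-fold. It was the only 1 of the 10 genes called in this contrast that also had a Log2FC of at least 1, which held for 2.88% of all genes. The study set that minimum with DESeq2 and for the 2 single comparisons. Of the 12 monocrotaline rats, 11 lay above the median of the saline rats and 10 above every saline rat. The 2 effects differed by a Log2FC of -0.040 (SE 1.09, edgeR adjusted p = 1.00 for the interaction), an estimate whose interval ran from -2.22 to 2.14 and left room for large differences in either direction. The call in Ex vs. CC-Ex turned on single rats. Without CC-Ex replicate 4 the Log2FC was 2.57 (adjusted p = 0.0456), and without CC-Ex replicate 5, which stood apart from all other libraries on the first principal component, it was 2.01 (adjusted p = 0.287).

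The spread of Pdk4 between rats of the same group was itself unusual among genes. Its coefficient of variation was 109.2% in Sed and 90.6% in Ex rats, above 99.8% and 99.7% of all genes, whose median coefficient was 13.9% and 13.5%. In CC-Sed rats the coefficient was 33.7%, above 75.8% of genes, and in CC-Ex rats it was 75.2%, above 95.6% of genes. The highest Sed rat had 17.9 times the level of the lowest, while the ratio was 16.2 for Ex, 2.62 for CC-Sed and 25.9 for CC-Ex rats, the widest. The saline and CC-Ex groups thus held both low and high rats, and only the CC-Sed group held high rats alone. Fold changes against the saline groups therefore rest on a reference that varied widely.

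Pdk2 (ENSRNOG00000004172) differed less than Pdk4 and varied less between rats. Sed rats lay between 105.1 and 169.0 CPM with a median of 143.5 CPM. Ex rats lay between 136.7 and 163.0 CPM with a median of 151.1 CPM. The coefficient of variation was 5.69% in the Ex group and 15.2% in the Sed group, where the median over all genes was 13.9%. CC-Sed rats lay between 158.6 and 208.8 CPM (median 182.7), and CC-Ex rats between 150.5 and 215.6 CPM (median 198.2). All 12 monocrotaline rats were above the saline median and 8 were above every saline rat. Averaged over sedentary and exercised rats, Pdk2 rose by a Log2FC of 0.35 (SE 0.08, edgeR adjusted p = 0.00352), or 1.28-fold. The separate comparisons gave 0.36 (SE 0.11, adjusted p = 0.0509) for sedentary and 0.35 (SE 0.11, adjusted p = 0.0891) for exercised rats. The level of Pdk2 also moved with the number in the library name, with r = -0.616 over the 24 rats, and these numbers were not even between groups, with medians of 15.5 for Sed, 18 for Ex, 10 for CC-Sed and 4 for CC-Ex rats. With that number in the model, the averaged Log2FC of Pdk2 was 0.27 (SE 0.09, edgeR adjusted p = 0.0385). In the same model it was 0.31 (SE 0.11, adjusted p = 0.0751) in Sed vs. CC-Sed. In Ex vs. CC-Ex it was 0.24 (SE 0.13, edgeR unadjusted p = 0.0859, adjusted p = 0.281). What the number stands for is not given in the sources used here.

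The start sites of Pdk4 and Pdk2, the kinases that rose, are shown because the FoxO factors described further on bind a forkhead core. Those factors were also higher in the monocrotaline groups, and whether they act on either gene here was not tested. Each sequence runs from 250 bases before to 50 bases after the RefSeq transcription start in GRCr8, a newer assembly than the one behind the counts. It covers chr4:34568280-34568579 for Pdk4 and chr10:80483863-80484162 for Pdk2, both on the minus strand and written 5′ to 3′ along the gene. Capitals mark the forkhead core AAACAA and the CCAAT box CCAAT, on either strand, so that they also read TTGTTT or ATTGG.
Pdk4: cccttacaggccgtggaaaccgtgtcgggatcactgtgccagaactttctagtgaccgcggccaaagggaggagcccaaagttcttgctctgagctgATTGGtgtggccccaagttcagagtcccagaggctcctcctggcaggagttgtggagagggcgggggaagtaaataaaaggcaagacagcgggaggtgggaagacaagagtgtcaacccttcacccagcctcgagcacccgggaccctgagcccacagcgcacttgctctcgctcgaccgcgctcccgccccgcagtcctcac
Pdk2: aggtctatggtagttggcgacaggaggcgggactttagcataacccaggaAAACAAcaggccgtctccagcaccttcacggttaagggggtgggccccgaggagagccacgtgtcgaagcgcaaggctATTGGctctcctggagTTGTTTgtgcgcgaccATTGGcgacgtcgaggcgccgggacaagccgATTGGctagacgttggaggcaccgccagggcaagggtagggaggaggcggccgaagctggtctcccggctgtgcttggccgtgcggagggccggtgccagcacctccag
The Pdk4 window held a CCAAT box with its first base 153 bases before the start, and no AAACAA. Only these exact letters were searched, so a window without AAACAA may still hold another form of a forkhead site. The Pdk2 window held AAACAA at 200 and 106 bases before the start and CCAAT boxes at 122, 90 and 59 bases before it, and none of these matches overlapped. Of the 7 members with an entry (there was none for Pdp1, Slc2a4 and Txnip), AAACAA was in the windows of Pdk2 and Pdhb and CCAAT in those of Pdk2, Pdk3 and Pdk4. Over all 33469 promoter windows of the same length, 20.6% held AAACAA and 37.5% held CCAAT. The letters AGAACA, a part of the site of the glucocorticoid receptor, stood in 20.7% of windows and in none of the 7, and CACGTG, the E-box, in 6.42% of windows and in those of Pdk2 and Pdhb. A match is a run of letters and not a measured site, and none of these windows was assayed for binding.

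Pdk1 (ENSRNOG00000001517), the kinase isoform known for its induction in low oxygen, did not pass the test. Its medians were 22.27 CPM in Sed, 23.57 in Ex, 27.90 in CC-Sed rats and 26.41 in CC-Ex rats, and the lowest and highest rats of all groups were at 14.92 and 37.02 CPM. The groups overlapped throughout. The Log2FC was 0.39 (SE 0.19, edgeR adjusted p = 0.177) in Sed vs. CC-Sed and 0.091 (SE 0.19, adjusted p = 0.777) in Ex vs. CC-Ex. Pdk1 was instead ordered by slow-fibre genes. A slow-fibre score was taken as the mean log2 CPM of Tnnc1, Tnni1, Myl3 and Tpm3, contractile genes of the slow oxidative fibres. This score parted the rats into 17 at 7.47 or above and 7 at 5.90 or below, with rats of every group in either set. Within the 17 rats the correlation with the log2 CPM of Pdk1 was r = 0.851, and within the other 7 it was 0.374. Over all 24 rats Spearman's rho was 0.891, and r was 0.779 after subtraction of group means and 0.762 without the 2 rats farthest from the median score. These values describe libraries that share depth and scaling, and no p is given. For Pdk4, Pdk2 and Txnip the correlation with the score after subtraction of group means was 0.309, 0.318 and 0.059.

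**Figure D2:**
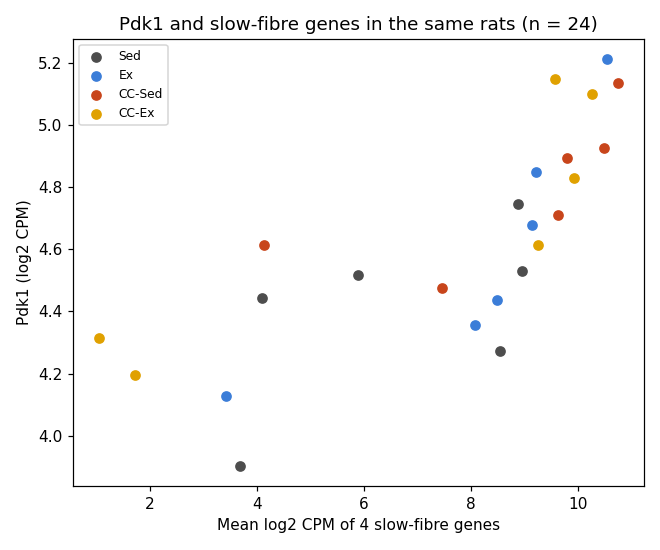
Level of Pdk1 (vertical axis, log2 CPM) against the mean log2 CPM of 4 slow-fibre genes (horizontal axis) in 24 rats, coloured by group. Among the 17 rats with the higher scores Pdk1 follows the score (r = 0.851), and 2 CC-Ex rats hold the lowest scores, at 1.05 and 1.71.

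Pdk3 (ENSRNOG00000012513) was close to the lower end of the table, with medians of 1.14 CPM in Sed, 1.11 in Ex, 0.953 in CC-Sed rats and 1.05 in CC-Ex rats. Its Log2FC was -0.15 (SE 0.31, edgeR adjusted p = 0.765) in sedentary and -0.42 (SE 0.30, adjusted p = 0.395) in exercised rats. The latter value rested on Ex replicate 6, the rat with the most Pdk3 (2.58 CPM), and was -0.10 (adjusted p = 0.846) without it. Of the 4 kinases, Pdk4 and Pdk2 were thus called in the averaged contrast and Pdk1 and Pdk3 were not.

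On the side of the phosphatase, the values of the member Pdp1 pointed downward without passing the test, and Pdp2 and Pdpr, which are not members, are described further on. Pdp1 (ENSRNOG00000016180) encodes the calcium-stimulated catalytic subunit that reactivates the complex. Its median was 83.06 CPM in Sed and 82.44 CPM in Ex rats, with a lowest saline rat at 62.17 and a highest at 102.5 CPM. It was 63.30 CPM in CC-Sed rats (range 38.85 to 79.77) and 67.77 CPM in CC-Ex rats (range 34.78 to 114.5). Of the 12 monocrotaline rats 11 lay below the saline median, and the exception, CC-Ex replicate 4, was the highest of all 24 rats. The Log2FC was -0.39 (SE 0.20, edgeR adjusted p = 0.210) in Sed vs. CC-Sed, -0.24 (SE 0.20, adjusted p = 0.475) in Ex vs. CC-Ex and -0.31 (SE 0.15, unadjusted p = 0.0406, adjusted p = 0.102) averaged over both in edgeR. The ratio of the CPM of Pdk4 to that of Pdp1, which can be compared between rats but not read as a ratio of molecules, had medians of 1.37 in Sed, 1.66 in Ex, 23.7 in CC-Sed rats and 15.0 in CC-Ex rats, and followed the wide range of Pdk4, from 0.380 to 53.1 over all rats. Without CC-Ex replicate 4, the rat that was also low in Pdk4, the averaged Log2FC was -0.41 (adjusted p = 0.0229) and passed. Without CC-Ex replicate 5, the rat with the lowest Pdp1, it was -0.26 (adjusted p = 0.136), and the Log2FC in Ex vs. CC-Ex was then -0.11 (adjusted p = 0.838).

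The E1 enzyme, the target of the kinases, showed no call. Pdha1 (ENSRNOG00000025383), the α subunit that carries the regulated phosphates, had medians of 573.7 CPM in Sed, 617.5 in Ex, 458.5 in CC-Sed rats and 438.1 in CC-Ex rats. Pdhb (ENSRNOG00000007895), the β subunit, had medians of 233.3, 263.3, 176.8 and 197.0 CPM in the same order. The monocrotaline medians were the lower ones for either gene, but CC-Sed replicate 4 held the highest level of all 24 rats for Pdha1 (794.1 CPM) and for Pdhb (379.3 CPM), and the groups overlapped widely. Averaged over sedentary and exercised rats, the Log2FC was -0.21 (SE 0.13, edgeR adjusted p = 0.223) for Pdha1 and -0.19 (SE 0.16, adjusted p = 0.369) for Pdhb. Reads of Pdha1 could be shared with Pdha1l1, a like-named gene in the table at 43.04 to 93.53 CPM, so its level is uncertain by that amount. With the counts of both summed, the averaged Log2FC was still -0.21.

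Of the genes of glucose entry, Slc2a4 and Hk2 showed no difference by monocrotaline that passed the test. Slc2a4 (ENSRNOG00000017226) had medians of 504.9 CPM in Sed, 520.1 in Ex, 555.1 in CC-Sed rats and 563.1 in CC-Ex rats, with single rats between 306.0 and 666.0 CPM. Its averaged Log2FC was 0.14 (SE 0.12, edgeR adjusted p = 0.407), with an interval of 2 SE from -0.11 to 0.38. Hk2 (ENSRNOG00000006116) had medians of 134.9, 132.4, 155.9 and 118.7 CPM in the same order of groups, and its averaged Log2FC was 0.0057 (SE 0.18, adjusted p = 0.984). The interval of Hk2 ran from -0.36 to 0.37. Its coefficient of variation was 22.4% in Sed, 18.2% in Ex, 38.1% for CC-Sed and 37.5% for CC-Ex rats, and the median over all genes was higher in the monocrotaline groups too, at 22.0% and 26.3% against 13.9% and 13.5%.

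Txnip (ENSRNOG00000021201) was the only 1 of the 10 genes called by edgeR in Sed vs. CC-Sed, where DESeq2 and limma-voom also called Pdk2 and Pdk4. Sed rats lay between 440.5 and 787.5 CPM with a median of 686.1 CPM. CC-Sed rats lay between 687.2 and 1533 CPM with a median of 1132 CPM. Among the CC-Sed rats 5 of 6 were above every Sed rat, and replicate 4 lay inside the Sed range. Ex rats lay between 455.8 and 872.2 CPM (median 606.4), and CC-Ex rats between 604.0 and 1569 CPM (median 1088). In Ex vs. CC-Ex the groups overlapped through CC-Ex replicates 2 and 4, the same rats that were low in Pdk4. Txnip rose in Sed vs. CC-Sed by a Log2FC of 0.82 (SE 0.24, edgeR adjusted p = 0.0463), or 1.76-fold. The Log2FC in Ex vs. CC-Ex was 0.71 (SE 0.24, adjusted p = 0.107), which did not pass. Averaged over both, Txnip rose by 0.76 (SE 0.17, edgeR adjusted p = 0.00375), or 1.70-fold, and the difference between the 2 effects was -0.11 (SE 0.34, adjusted p = 1.00). The call in Sed vs. CC-Sed lay near the threshold. It was lost in 10 of 12 fits that each left out 1 rat, with upper-quartile scaling (Log2FC 0.73, adjusted p = 0.0585) and with library number as a covariate (0.82, adjusted p = 0.0520). It held without CC-Sed replicate 2 (Log2FC 0.80, adjusted p = 0.0437) and without CC-Sed replicate 4 (0.92, adjusted p = 0.0161), and the highest adjusted p of the other fits was 0.106. In Ex vs. CC-Ex Txnip passed without CC-Ex replicate 4 (0.82, adjusted p = 0.0347).

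**Figure D3:**
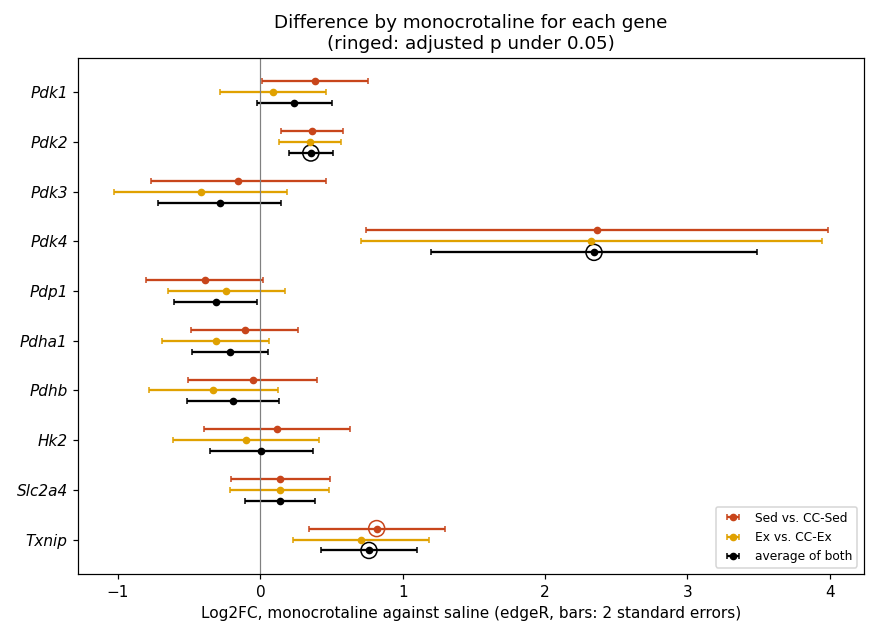
Log2FC by monocrotaline for each of the 10 genes (horizontal axis, positive when higher in monocrotaline rats), in sedentary rats, in exercised rats and averaged over both, from the edgeR model over 24 rats. Bars span 2 standard errors on either side and rings mark an adjusted p under 0.05. Pdk4 has the largest values, near 2.3, with wide bars, while rings on the average are at Pdk2, Pdk4 and Txnip and the only other ring is at Txnip in sedentary rats.

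Training left none of the 10 genes past the test. In Sed vs. Ex and in CC-Sed vs. CC-Ex edgeR called 0 of the 10 genes, none had an unadjusted p under 0.05, and DESeq2 and limma-voom called 0 as well. Over all genes 0% were called in either comparison, and 1.07% and 2.14% had an unadjusted p under 0.05. For Pdk4 the Log2FC by training was -0.35 (SE 0.77, interval from -1.90 to 1.19) in saline and -0.39 (SE 0.77, interval from -1.94 to 1.15) in monocrotaline rats, so that changes of more than 2-fold in either direction were not resolved. For Pdk2 the same differences were 0.089 (SE 0.11) and 0.075 (SE 0.11), and for Txnip -0.0014 (SE 0.24) and -0.11 (SE 0.24). For Slc2a4, a gene known to respond to endurance training, they were 0.083 (SE 0.17) and 0.078 (SE 0.17). The interaction, which asks whether training altered the difference by monocrotaline, called 0 of the 10 genes in edgeR, DESeq2 and limma-voom, with none at an unadjusted p under 0.05, beside 0% of all genes called and 1.41% with an unadjusted p under 0.05.

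Pdk4 and Txnip varied together from rat to rat. After subtraction of group means, their log2 CPM correlated with r = 0.670 over the 24 rats, and without that step r was 0.825 and Spearman's rho 0.834. Without the 2 rats farthest from the median of Pdk4, r was 0.835. The closest pair was that of the E1 subunits, Pdha1 and Pdhb, at r = 0.952 after subtraction of group means. Pdp1 went with Pdha1 at 0.711 and with Pdhb at 0.641, and Slc2a4 went with Pdhb at 0.760 and with Pdha1 at 0.709 on the same measure. Of the 45 pairs, 7 had a value above 0.6. Pdk4 and Pdp1 had r = -0.513 over all rats and -0.287 after subtraction of group means. These are descriptions across rats whose libraries share scaling and differ in fibre makeup.

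**Figure D4:**
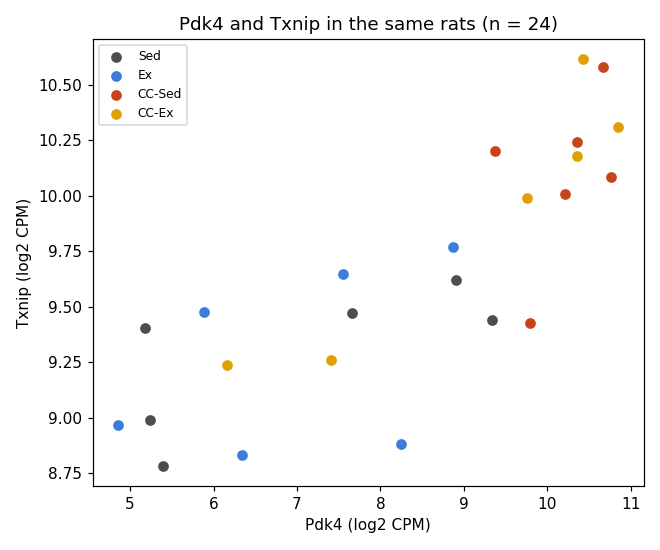
Level of Txnip (vertical axis, log2 CPM) against that of Pdk4 (horizontal axis, log2 CPM) in 24 rats, coloured by group. Rats high in Pdk4 were high in Txnip (r = 0.825 over all rats), and the 2 CC-Ex rats with the least Pdk4 lie among the saline rats for both genes.

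Among all other genes of the table, those most like Pdk4 by Pearson's r of log2 CPM over the 24 rats were Asb4 (0.897), Klf11 (0.871), Mlycd (0.866), Clpx (0.861) and Ech1 (0.859). Mlycd encodes malonyl-CoA decarboxylase, Ech1 a peroxisomal and mitochondrial enzyme of fatty acid oxidation, Clpx a subunit of a mitochondrial protease, Klf11 a transcription factor and Asb4 a substrate receptor of a ubiquitin ligase. After subtraction of group means the same 5 genes stood between 0.715 and 0.832. Most opposed were Ntng2 (-0.842), Nab1 (-0.828) and Rgma (-0.826). For the other members apart from Pdk2 the closest genes were Kremen1 for Pdk1 (0.892), Exo5 for Pdk3 (0.884), Abcd2 for Pdp1 (0.943), Pdha1l1 for Pdha1 (0.976), Uqcrc1 for Pdhb (0.994), Fkbp2 for Hk2 (0.784), Fmc1 for Slc2a4 (0.823) and Cited2 for Txnip (0.887). Uqcrc1, a core subunit of respiratory complex III, followed Pdhb almost exactly from rat to rat.

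The other genes of the pathway were counted in 5 lists, which were chosen with earlier results of these data known. Their shares beside all genes are therefore descriptions and not a test of the lists. In the 2 single comparisons the differences that passed the test in edgeR lay only among regulators known to act on Pdk4, while the average also called genes of other lists. Of 9 such regulators, 5 rose in Sed vs. CC-Sed and 4 in Ex vs. CC-Ex, and none fell, beside 4.17% and 0.866% of all genes called higher. Calls in Ex vs. CC-Ex turned on single rats and on the model. Over all genes edgeR called 107 with every rat, 2 without Ex replicate 2, 845 without CC-Ex replicate 4 and 1 with the replicate block. Which of the 4 regulators held in each such fit is not reported here. Foxo1, a forkhead factor of fasting, rose by a Log2FC of 2.40 (SE 0.52, edgeR adjusted p = 0.0141) in sedentary and 2.45 (SE 0.52, adjusted p = 0.0337) in exercised rats. Its relative Foxo3 rose by 1.62 (SE 0.35) and 1.52 (SE 0.35). Klf15, a factor induced by glucocorticoids, rose by 1.39 (SE 0.35) and 1.68 (SE 0.35), and Cebpd, a stress-responsive C/EBP factor, by 2.58 (SE 0.58) and 2.67 (SE 0.58). The study does not list any of these 4 genes among those shared by its 2 comparisons, so its calls and those given here differ. Ppard, a lipid-sensing nuclear receptor, rose in Sed vs. CC-Sed by 0.73 (SE 0.18, adjusted p = 0.0212) and had a Log2FC of 0.67 (SE 0.18, adjusted p = 0.0625) in Ex vs. CC-Ex. The regulators Ppara, Ppargc1a, Esrra and Nr3c1, the last of which encodes the glucocorticoid receptor, were not called in either comparison. Averaged over sedentary and exercised rats, 5 of the 9 were called, all higher, beside 17.2% of all genes called higher, and the median Log2FC of the list was 0.70, against 0.014 over all genes. Over the 24 rats Klf15 was the regulator with the highest r with Pdk4 (0.741, and 0.476 after subtraction of group means), followed by Foxo3 (0.725 and 0.414) and Foxo1 (0.720 and 0.411).

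The rest of the PDH complex and the import of pyruvate, 7 genes, gave no call in either single comparison. Averaged over sedentary and exercised rats 1 of the 7 fell, beside 10.6% of all genes called lower. This was Pdpr, the regulatory subunit of the PDH phosphatase, with a Log2FC of -0.39 (SE 0.11, edgeR adjusted p = 0.0117). The averaged values of the E2 gene Dlat (-0.41, SE 0.19, adjusted p = 0.0976) and of Mpc1 (-0.39, SE 0.21, adjusted p = 0.153) and Mpc2 (-0.33, SE 0.22, adjusted p = 0.247), which form the mitochondrial pyruvate carrier, did not pass. Pdp2, the other catalytic subunit of the phosphatase, had an averaged Log2FC of 0.48 (SE 0.21, adjusted p = 0.0821). The median of the list was -0.33, against 0.014 over all genes.

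Glucose transport, 8 genes, gave no call in either single comparison and 3 in the average, 2 higher and 1 lower, where 27.8% of all genes were called, so that the count was near the background. Slc2a1, which encodes the basal transporter GLUT1, rose by 0.92 (SE 0.26, edgeR adjusted p = 0.0144), and Aspscr1, whose product TUG holds GLUT4 vesicles inside the cell, rose by 0.60 (SE 0.17, adjusted p = 0.0166). Slc2a12, which encodes the transporter GLUT12, fell by 0.51 on the log2 scale (SE 0.17, adjusted p = 0.0337). Tbc1d1 and Tbc1d4, targets of insulin and exercise signals in GLUT4 traffic, had averaged values of -0.37 (SE 0.40, adjusted p = 0.501) and -0.036 (SE 0.18, adjusted p = 0.890). Of 5 genes around Txnip, Arrdc4, a related arrestin that also lowers glucose uptake, rose in the average by 0.65 (SE 0.14, adjusted p = 0.00377), with 0.48 (SE 0.20, adjusted p = 0.126) in sedentary and 0.81 (SE 0.20, adjusted p = 0.0531) in exercised rats. Mlxip and Mlx, the glucose-sensing pair that drives both arrestin genes, and the thioredoxin genes Txn1 and Txn2 were not called. Mean levels of Mlxip went the opposite way to Txnip, at 143.5 CPM in Sed against 95.7 in CC-Sed rats and 132.2 in Ex against 112.6 in CC-Ex rats. Those of Mlx were higher with monocrotaline, at 21.2 against 23.3 and 20.5 against 24.8 CPM in the same order. None of the 4 genes of lactate exchange, Ldha, Ldhb, Slc16a1 and Slc16a3, was called by edgeR in the average or in either comparison, and none had an unadjusted p under 0.05.

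**Figure D5:**
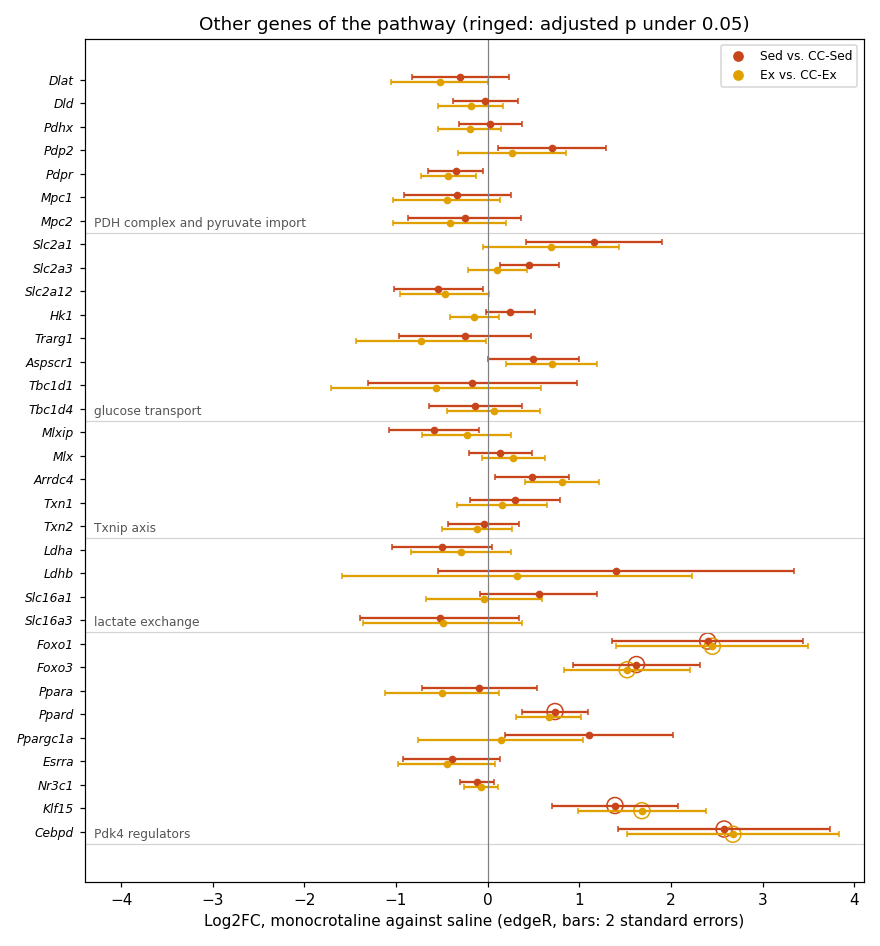
Log2FC by monocrotaline of the 33 other genes of the pathway (horizontal axis, positive when higher in monocrotaline rats), grouped by list, in sedentary and in exercised rats. Points are edgeR estimates, bars span 2 standard errors on either side and rings mark an adjusted p under 0.05. Rings occur only in the list of Pdk4 regulators, at Foxo1, Foxo3, Klf15 and Cebpd in both comparisons and at Ppard in sedentary rats.

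Library totals lay between 37816239 and 50350554 counts (median 42891611), so counting error was small beside the difference between rats for 9 of the members, while Pdk3 rested on few counts. Muscle markers were high in every library, with all 6 genes of the list present and a summed level of 56470 to 109900 CPM. The summed level of the 4 slow-fibre genes measured, of 7 listed, ran from 16.93 to 7381 CPM, with medians of 973.1 in Sed, 1953 in Ex, 3605 in CC-Sed rats and 2956 in CC-Ex rats. For the fast-fibre list, 6 of 8 genes, the medians were 125500, 125700, 83980 and 128500 CPM. Endothelial markers (4 of 5 genes) had medians of 167.5, 172.2, 217.1 and 244.5 CPM, leukocyte markers (5 of 5) of 92.35, 104.3, 95.53 and 66.17 CPM, and adipocyte markers (2 of 5) of 126.0, 121.8, 115.5 and 122.0 CPM. The erythroid genes (3 of 3) had medians of 115.1, 151.3, 118.6 and 317.9 CPM. The slow-fibre and endothelial sums were thus higher at the median in the monocrotaline groups, as Pdk4, Pdk2 and Txnip were. Within the endothelial list the markers parted, with mean levels of 28.2 CPM in Sed against 74.9 in CC-Sed rats for Vwf and 24.2 against 37.4 for Kdr, but 87.4 against 73.6 for Cdh5 and 31.7 against 24.2 for Tie1, and Ex and CC-Ex rats differed in the same directions. The part of blood vessel cells in these results was not tested. With the slow-fibre score in the model, the averaged Log2FC was 2.44 for Pdk4, 0.35 for Pdk2 and 0.76 for Txnip, each past the threshold. In whole muscle, a change in the share of a cell type and a change of RNA within its cells cannot be told apart.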

How the data were processed

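Poly-A RNA of the medial gastrocnemius was sequenced from stranded libraries of 24 rats, 6 per group, and the labels gave each group and replicate number. The authors used Trim Galore for trimming and Salmon for quantification (mRatBN7.2 transcriptome) and summed transcripts to genes with tximport. The deposited values are estimated counts per gene, whole numbers of at least 10, not scaled for library size. The processing notes of the submitters also name DESeq2 1.44.0. Animals were not pooled.

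The tests used edgeR 4.0.16 (R 4.3.3). A filter by group (filterByExpr) removed 0 of 10851 genes, and TMM scaled the libraries. One robust quasi-likelihood fit held all rats in 4 groups, and p-values of 6 contrasts were adjusted by Benjamini-Hochberg over every gene of the table. Standard errors are the size of the Log2FC over the square root of F, and intervals are 2 SE to either side. Log2 CPM used a prior count of 2. Correlations are descriptions without p. The count scripts were tested on simulated data.

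All 10 members were described, with 33 pathway genes in 5 lists, cell-type markers, and the genes with the highest r to each member (for Pdk4 the 5 highest and 3 lowest, and for Pdk2 not reported here). The members and lists were chosen with earlier results of these data known. Alternatives were DESeq2 1.42.0, upper-quartile scaling, no filter, limma-voom with quality weights (limma 3.58.1), only the rats compared, the replicate number as a block, library number or slow-fibre score as a covariate, the added Log2FC minimum, and each rat left out. Promoter windows came from RefSeq (GRCr8), matched by symbol for 7 of the 10 members. Library totals of 37816239 to 50350554 counts made the spread between rats the limit on precision. No pair of libraries agreed within sampling noise (lowest chi-square per degree of freedom 28.1). Body and muscle measures and RT-qPCR values were not analysed here.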

Additional observations from a re-analysis of the deposited data

Results flagged for a closer look

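Of 44 groups of 6 values examined for a lone rat, 1 held a value far from the others, where chance alone gives about 1 in 20. Pdk3 in Ex replicate 6 was at 2.577 CPM (121 counts), and the nearest of the other Ex rats was at 1.192 CPM, a gap of 0.805 of the range of the group (Dixon's criterion at 95%). Pdk3 was called in none of the comparisons.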

How the results depend on the processing

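The averaged difference by monocrotaline called Pdk2, Pdk4 and Txnip under every scaling, covariate and block tried and in all 24 fits without 1 rat, with an adjusted p of at most 0.0385 among the former (Pdk2, library number as covariate) and 0.0122 among the latter. Its count moved from 3 to 5 with limma-voom (adding Pdk1 and Pdp1) and to 1 (Pdk4) with the Log2FC minimum. In Sed vs. CC-Sed the count of 1 became 3 with DESeq2 and with limma-voom (Pdk2, Pdk4 and Txnip), 2 with the slow-fibre covariate (Pdk2 and Txnip), and 0 with upper-quartile scaling, the replicate block or the Log2FC minimum, and with library number it was 1 (Pdk4 in place of Txnip). In Ex vs. CC-Ex the count of 0 became 3 with DESeq2 and 1 (Pdk2) with limma-voom. Leaving out 1 rat gave 0 to 2 calls in Sed vs. CC-Sed (2 without CC-Sed replicate 4), 0 to 2 in Ex vs. CC-Ex (2 without CC-Ex replicate 4) and 3 to 4 in the average. The cause of these moves was not tested. Counts for training and for the interaction stayed at 0 under every alternative.

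Same-numbered rats are different animals, and the sources name no pairing between them. Their deviations from group means correlated at a mean r of 0.095 for Sed and CC-Sed (range -0.50 to 0.36, 4 of 6 pairs over 0.1). For Ex and CC-Ex the mean was -0.17 (range -0.42 to 0.15, 1 of 6 pairs). So few pairs with so wide a range cannot decide whether same-numbered rats shared more than a number. The replicate block took the call of Txnip in Sed vs. CC-Sed (adjusted p = 0.0634) and changed no other call of the members.

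The alternative with no filter repeated the main fit, because the filter removed 0 genes, so its values could not differ. Of 302 values of single genes under these alternatives, that one included and fits without a rat left out, 268 kept direction and call. Another 12 passed newly, 3 lost the call and 19 changed sign, all of the last near 0 relative to their error. For Hk2 these were -0.056 (limma-voom) and -0.030 (slow-fibre) in Sed vs. CC-Sed, 0.037 (limma-voom) in Ex vs. CC-Ex, and in the average -0.0015 (DESeq2), -0.060 (upper quartile), -0.0095 (limma-voom), -0.017 (block), -0.031 (library number) and -0.032 (slow-fibre). In Sed vs. Ex they were 0.16 for Pdk4 (limma-voom) and, for Txnip, 0.0059 (upper quartile), 0.020 (limma-voom) and 0.034 (block). In the interaction they were 0.0057 (DESeq2), 0.0050 (upper quartile), 0.033 (limma-voom) and 0.029 (slow-fibre) for Pdk2, and 0.19 (library number) and 0.40 (slow-fibre) for Pdk4. Without single rats, signs also changed for Pdhb (-0.28 to 0.028) and Hk2 (-0.021 to 0.24) in Sed vs. CC-Sed, Pdk1 (-0.0053 to 0.23) and Hk2 (-0.22 to 0.037) in Ex vs. CC-Ex, Pdk4 (-0.86 to 0.24) and Txnip (-0.11 to 0.078) in Sed vs. Ex, Txnip (-0.27 to 0.0063) in CC-Sed vs. CC-Ex, Hk2 (-0.062 to 0.071) in the average, and Pdk2 (-0.070 to 0.060), Pdk4 (-0.63 to 0.47) and Txnip (-0.26 to 0.0077) in the interaction. Depth limited Pdk3, the member with the lowest counts.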
